A study of Homo sapiens with 18 samples.

Results

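The genes described here are TNFSF10, the gene of the death ligand TRAIL, and the machinery through which it kills cells. They are the death receptor genes TNFRSF10A and TNFRSF10B, the decoy receptor gene TNFRSF10D, the initiator caspase genes CASP8 and CASP10, the inhibitor genes CFLAR and XIAP, and BID, a link to the mitochondria. These 9 genes were taken by symbol from the 41120 genes of the deposited count table, and all 9 were among the 12291 genes with enough counts to be tested. TNFRSF10D was chosen by its measured counts, being present in SCC154 and absent in FADU, so its difference between the lines is given as a description with no test. TNFRSF10A, TNFRSF10D and CASP10 had enough counts for testing only through SCC154, and TNFSF10 mainly through FADU. A line difference of such a gene is fixed in part by that filter, so these differences too are given as descriptions, with no p-value.

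TRAIL is a cytokine of the tumour necrosis factor family that binds the receptors encoded by TNFRSF10A (also called DR4) and TNFRSF10B (DR5). A bound receptor gathers the adaptor FADD and the initiator caspases 8 and 10 through death and death effector domains, and the activated caspase cleaves effector caspases and the BID protein, whose fragment permeabilises mitochondria. CFLAR (also called cFLIP) competes with caspase 8 in this complex, XIAP blocks effector caspases, and the receptor of TNFRSF10D (DcR2) binds TRAIL with a truncated death domain that does not kill. In squamous carcinoma of the head and neck, as in other epithelial tumours, these receptors have been studied as a route to induce apoptosis.

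The study measured messenger RNA in cells of the human head and neck squamous carcinoma lines SCC154, positive for human papillomavirus (HPV), and FADU, which is HPV-negative. All cells carried a hypoxia-fate mapping reporter (the lines are titled SCC154-hfm and FADU-hfm), under which cells that had met low oxygen are GFP-positive and the others DsRed-positive. Spheroids were dissociated with trypsin, sorted by colour and cultured under normoxia before RNA extraction. The comparison is thus between sorted populations after culture in normoxia. A lasting effect of low oxygen and a difference present before the exposure cannot be told apart. There were 4 libraries of post-hypoxic SCC154 cells, 5 of non-hypoxic SCC154 cells, 5 of post-hypoxic FADU cells and 4 of non-hypoxic FADU cells. Values below stand in order of replicate number, 2 to 5 in post-hypoxic SCC154 cells and from 1 upward in the other groups. Each HPV status is represented by 1 line, so virus and line cannot be told apart. The labels do not call the replicates separate cultures or sorts, so a p-value here reflects the scatter among these libraries alone and that scatter may be technical.

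Library totals lay between 1654719 and 2503573 counts. Levels are given in CPM, the count of a gene scaled to a common library size, and differences as log2 fold changes from the quasi-likelihood test of edgeR. P-values were adjusted by the method of Benjamini and Hochberg over the 12291 tested genes, and a gene was called at an adjusted p under 0.05. All 8 markers of squamous epithelium were present in every group, with a summed level of 1530 to 1910 CPM in post-hypoxic SCC154, 1560 to 1780 CPM in non-hypoxic SCC154, 1710 to 1810 CPM in post-hypoxic FADU and 1550 to 1810 CPM in non-hypoxic FADU cells. Between the lines 7 of the 8 were called in each population, 2 higher and 5 lower in SCC154. The summed levels of marker lists for fibroblasts, endothelium and leukocytes were at most 5.77 CPM in any library.

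Promoters were examined for TNFSF10, CASP8, XIAP and BID, each in the window nearest the gene start. Those of the receptor genes were not examined. Sequences are shown for the ligand and for the apical caspase, because of the 4 windows examined these 2 hold a motif bound by interferon-regulated factors. A further reason was that IRF9, a subunit of an interferon-activated factor, was called between the populations of SCC154. The sequences are RefSeq's on GRCh38.p14 and run from 250 bases before to 50 after the annotated start, in the direction of transcription. Capitals mark the core of interferon-stimulated response elements, 2 copies of GAAA set 2 bases apart, which here lies on the opposite strand and so reads as its reverse complement. In the CASP8 window the earlier capitals mark TTCNNNGAA, a sequence recognised by STAT factors. The TNFSF10 window is chr3:172523381-172523680 on the minus strand and the CASP8 window chr2:201233213-201233512 on the plus strand.
TNFSF10 promoter: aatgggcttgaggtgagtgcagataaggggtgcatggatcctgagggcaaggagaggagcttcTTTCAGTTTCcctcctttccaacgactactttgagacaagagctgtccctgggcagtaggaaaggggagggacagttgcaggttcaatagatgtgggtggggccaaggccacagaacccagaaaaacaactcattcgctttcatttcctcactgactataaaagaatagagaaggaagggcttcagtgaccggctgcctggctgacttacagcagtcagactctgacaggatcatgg
CASP8 promoter: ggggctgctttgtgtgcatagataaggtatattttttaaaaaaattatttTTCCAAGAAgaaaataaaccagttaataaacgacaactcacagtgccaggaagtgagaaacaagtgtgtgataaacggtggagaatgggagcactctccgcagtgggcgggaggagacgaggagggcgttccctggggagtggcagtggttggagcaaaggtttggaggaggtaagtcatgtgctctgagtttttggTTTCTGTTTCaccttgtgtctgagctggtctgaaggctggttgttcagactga
Searched on both strands, the interferon core was in 3.57% and TTCNNNGAA in 7.66% of the 35116 promoter windows of 300 bases in the same table. The cores of hypoxia response elements, ACGTG and GCGTG, were in 48.4% of all windows counted together. Neither letter sequence was in the examined window of TNFSF10, CASP8 or BID, and ACGTG was in that of XIAP. CASP8, XIAP and BID had other windows farther from the gene start, which were not examined. A match is a description of the letters, not of binding. For CFLAR and CASP10 no window within 200 bases of the gene start was in the table.

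None of these genes was called between post-hypoxic and non-hypoxic cells in either line. In SCC154, 0 of 9 genes passed, against a background of 0.757% of all tested genes (0.334% higher and 0.423% lower). That background of 93 genes was not stable, at 20 to 190 genes with a library left out and 1052 genes with replicate number as a block, and 0 members were called in each of these fits. In FADU, 0 of the 7 genes with counts in that line passed, against 0.0% of all tested genes, where edgeR made no call and 298 genes had an unadjusted p under 0.05. The change differed between the lines for 0 of 7 genes, against 0.0163% of all tested genes. DESeq2 and limma voom likewise called 0 members in each of these 3 comparisons. At an unadjusted p under 0.05 edgeR also had 0 members in each. Counts of 0 beside these shares are not a result about these genes. Within a line the standard errors of the differences lay between 0.10 and 0.54 on the log2 scale, so that small changes were not detectable.

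**Figure D1:**
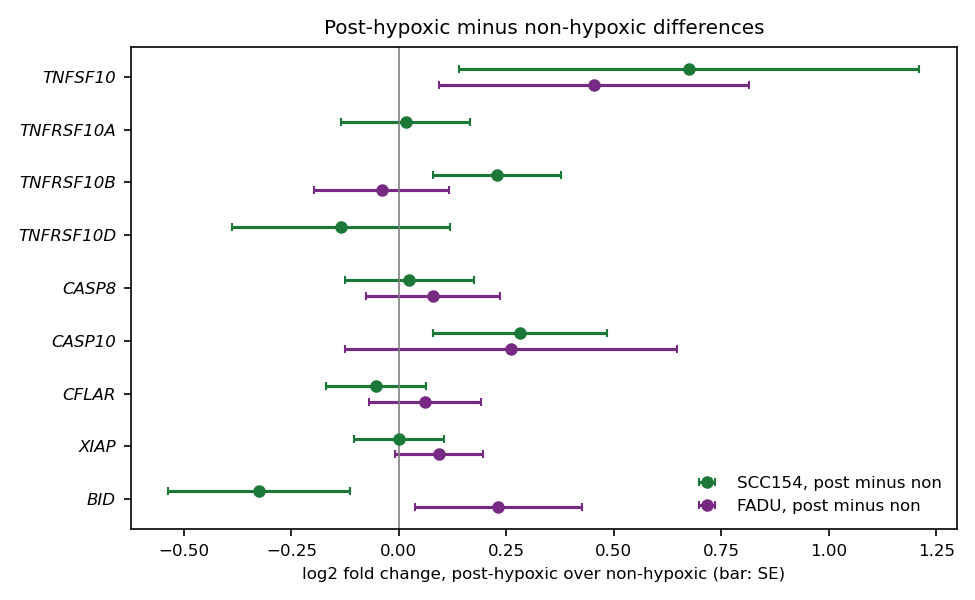
Log2 fold change of each gene, post-hypoxic over non-hypoxic cells (horizontal axis), in SCC154 (green) and FADU (purple); bars are the standard error of the edgeR fit. The points lie between -0.32 and 0.68, none was called, and TNFRSF10A and TNFRSF10D have no FADU point because that line had at most 1 count of either.

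Between the lines most of the genes differed, as did most genes of the table. The 5 genes with at least 10 counts in all libraries of both lines were TNFRSF10B, CASP8, CFLAR, XIAP and BID. In post-hypoxic cells 5 of these 5 were called, 3 higher and 2 lower in SCC154 than in FADU, against 69.7% of all tested genes (34.8% higher and 34.9% lower). In non-hypoxic cells 4 of the 5 were called, 3 higher and 1 lower, against 68.9% (34.5% in each direction). Counts this near the background are not a result about these genes. The values of each gene follow, from ligand to mitochondria.

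TNFSF10 was scarce in SCC154 and more abundant in FADU. It had 4.07, 13.7, 1.22 and 3.61 CPM in post-hypoxic SCC154 cells, against 4.91, 3.37, 2.29, 2.59 and 2.89 CPM in non-hypoxic SCC154 cells. FADU cells had 11.4, 25.6, 9.94, 16.4 and 23.6 CPM in the post-hypoxic libraries and 11.4, 19.9, 7.45 and 11.8 CPM in the non-hypoxic ones. A single post-hypoxic SCC154 library, replicate 3, reached the FADU range, and all other SCC154 libraries lay below it. TNFSF10 was 3.37-fold lower in post-hypoxic SCC154 than in post-hypoxic FADU cells (edgeR log2 fold change -1.75 ± 0.42 SE), and 5.83-fold lower when replicate 3 was left out. In non-hypoxic cells the groups did not overlap, and the ligand gene was 3.93-fold lower in SCC154 (log2 fold change -1.97 ± 0.46 SE).

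Within each line the TNFSF10 groups overlapped. The post-hypoxic minus non-hypoxic difference was 0.68 ± 0.54 SE on the log2 scale in SCC154 (edgeR adjusted p = 0.57), and it turned to -0.12 without post-hypoxic replicate 3. In FADU it was 0.45 ± 0.36 SE (adjusted p = 1.0), and the post-hypoxic library had the higher level in 4 of 4 pairs of equal replicate number. The pair of replicate 1 was nearly a tie, at 11.39 CPM post-hypoxic against 11.35 CPM non-hypoxic, from 21 against 24 counts. Of the genes measured in FADU only TNFSF10 and BID had 4 of 4 such pairs, and the rest had 2 or 3. With the pair as a block the edgeR adjusted p of TNFSF10 in FADU was 0.87. The interaction was 0.22 ± 0.63 SE (adjusted p = 0.95).

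The receptor genes divided into TNFRSF10B, present in both lines, and TNFRSF10A and TNFRSF10D, present in SCC154 and at or next to 0 in FADU. All lie on chromosome 8 with the decoy gene TNFRSF10C, within 205 kb (GRCh38, GENCODE release 29), in the order TNFRSF10B, TNFRSF10C, TNFRSF10D and TNFRSF10A. TNFRSF10C, whose product is held in the membrane by a lipid anchor, had 0 counts in all 18 libraries, which allows up to 0.0776 CPM. These genes are close copies of each other, and how reads matching several genes were counted is not given in the sources used here, so the division of reads among them is uncertain.

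TNFRSF10A, the gene of death receptor DR4, had 70.1, 70.0, 83.2 and 103 CPM in post-hypoxic SCC154 cells and 70.7, 71.6, 82.95, 91.1 and 87.9 CPM in non-hypoxic SCC154 cells. Every post-hypoxic FADU library was at 0, and the non-hypoxic FADU libraries held 1 count in all, in replicate 3. Post-hypoxic SCC154 cells thus had 723 counts against 0 in post-hypoxic FADU cells, a level at least 300.0-fold higher when FADU is set at a floor of 3 counts over the group. In non-hypoxic cells 862 counts in SCC154 stood against 1 in FADU, a ratio of CPM of 675 with an exact 95% counting interval of 121 to 26680. Intervals and floors cover counting error only. Between the populations of SCC154 the difference was 0.02 ± 0.15 SE (log2, adjusted p = 0.98).

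TNFRSF10D, the decoy receptor gene, had 107, 134, 86.1 and 194 CPM in post-hypoxic SCC154 cells and 64.3, 151, 152, 173 and 175 CPM in non-hypoxic SCC154 cells. All 9 FADU libraries were at 0, in 19648765 counts, which allows up to 0.156 CPM. Against the floor of 3 counts over a group, the SCC154 level was at least 469-fold higher in post-hypoxic and at least 399.7-fold higher in non-hypoxic cells; these values are what the gene was picked for. The 2 SCC154 populations overlapped, with a non-hypoxic library, replicate 1, below all others, and their difference was -0.14 ± 0.25 SE on the log2 scale (edgeR adjusted p = 0.84). With replicate number as a block it was -0.36 (adjusted p = 0.078, unadjusted p = 0.0097).

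TNFRSF10B, the gene of death receptor DR5, had 87.6, 81.9, 118 and 102 CPM in post-hypoxic SCC154 cells and 80.5, 89.9, 71.5, 91.9 and 82.1 CPM in non-hypoxic SCC154 cells. It had 53.1, 58.1, 58.3, 58.3 and 61.7 CPM in post-hypoxic FADU cells and 55.8, 85.8, 52.6 and 42.9 CPM in non-hypoxic FADU cells. The post-hypoxic groups of the lines did not overlap, while the non-hypoxic ones did through FADU replicate 2. The gene was 1.68-fold higher in post-hypoxic SCC154 than in post-hypoxic FADU cells (log2 fold change 0.75 ± 0.15 SE, edgeR adjusted p = 0.000123) and 1.40-fold higher in non-hypoxic cells (0.48 ± 0.15 SE, adjusted p = 0.0083). Post-hypoxic minus non-hypoxic differences were 0.23 ± 0.15 SE in SCC154 (adjusted p = 0.48) and -0.04 ± 0.16 SE in FADU (adjusted p = 1.0), with an interaction of 0.27 ± 0.22 SE (adjusted p = 0.71).

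A limit applies to the TNFRSF10B values. The last 67 bases of the gene overlap the end of RHOBTB2 on the other strand, and the strand setting of the counting is not given in the sources used here. RHOBTB2 itself had means of 46.0 CPM in post-hypoxic and 37.7 CPM in non-hypoxic SCC154 cells, and of 59.4 CPM in post-hypoxic and 67.3 CPM in non-hypoxic FADU cells. Its part in the TNFRSF10B values was not tested.

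**Figure D2:**
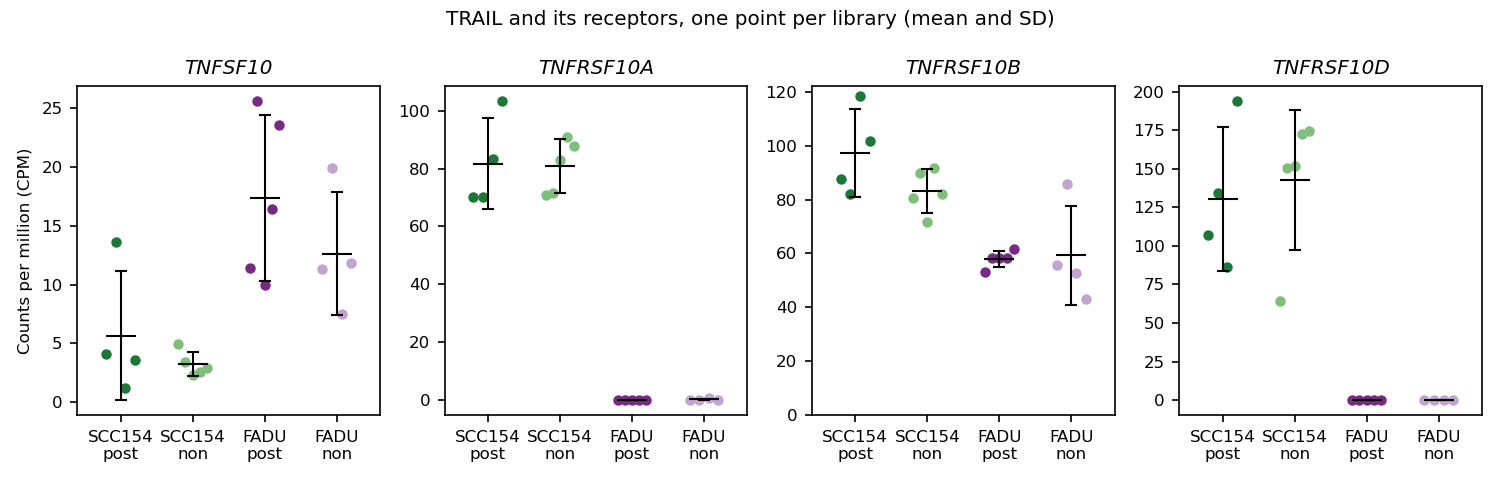
CPM of the ligand gene TNFSF10 and the receptor genes TNFRSF10A, TNFRSF10B and TNFRSF10D in each library (1 point per library; bars are mean and SD) for SCC154 post-hypoxic, SCC154 non-hypoxic, FADU post-hypoxic and FADU non-hypoxic cells. TNFRSF10A and TNFRSF10D lie at or next to 0 in FADU, TNFRSF10B is measured in every library, and TNFSF10 lies higher in FADU.

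Ratios between the receptor genes inside a library were taken for SCC154 alone. The count of TNFRSF10D over that of TNFRSF10A was 1.53, 1.92, 1.03 and 1.88 in post-hypoxic libraries and 0.91, 2.1, 1.83, 1.9 and 1.99 in non-hypoxic ones. TNFRSF10B over TNFRSF10A was 1.25, 1.17, 1.42 and 0.983 in post-hypoxic and 1.14, 1.26, 0.862, 1.01 and 0.934 in non-hypoxic libraries. The low decoy ratios belonged to post-hypoxic replicate 4 and non-hypoxic replicate 1, so each population had 1 such library.

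Most genes around the receptor cluster had counts in FADU. The 3 nearest protein-coding genes on each side, looked up after the receptor values were known, were EGR3, PEBP4 and RHOBTB2 before it and CHMP7, R3HCC1 and LOXL2 after it. CHMP7, next to TNFRSF10A, averaged 40.0 CPM in post-hypoxic and 42.5 CPM in non-hypoxic SCC154 cells, against 47.1 CPM in post-hypoxic and 34.6 CPM in non-hypoxic FADU cells. LOXL2 was at 11.6 and 5.36 CPM in post-hypoxic and non-hypoxic SCC154 cells, against 42.5 and 42.4 CPM in post-hypoxic and non-hypoxic FADU cells. R3HCC1 ran the other way, with 14.3 and 18.1 CPM in SCC154 against 4.76 and 6.63 CPM in FADU, post-hypoxic first in each pair. PEBP4 was near 0 in every group. FADU counts were thus present on both sides of the stretch that holds TNFRSF10D and TNFRSF10A, whose neighbouring ends lie 26.4 kb apart.

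**Figure D3:**
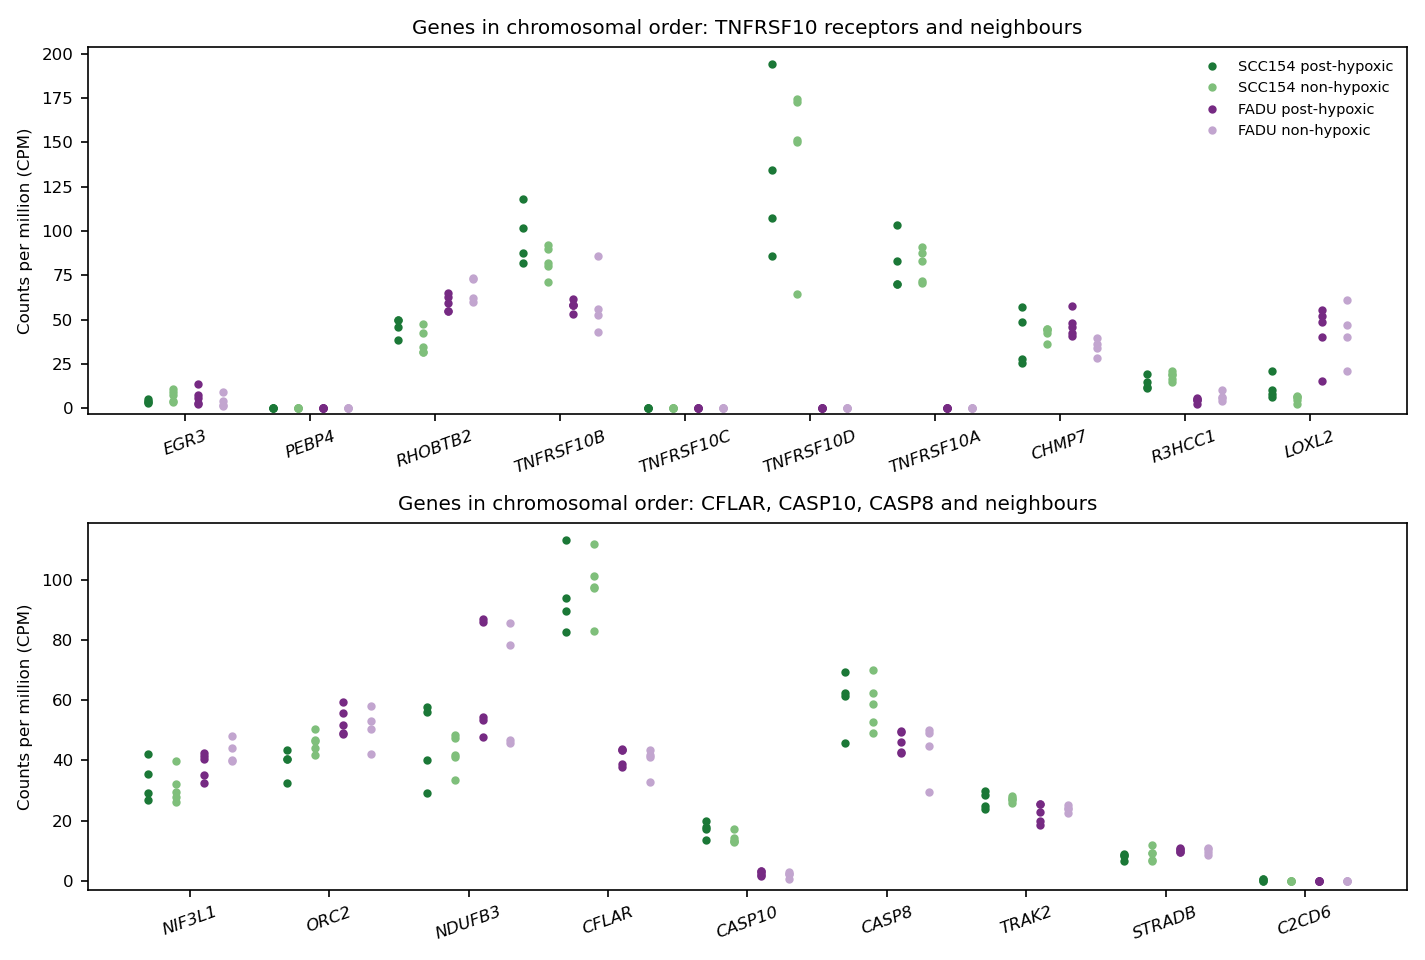
CPM per library (1 point per library) of the TNFRSF10 receptor genes with 3 protein-coding neighbours on each side (top) and of CFLAR, CASP10 and CASP8 with theirs (bottom), in chromosomal order, for the 4 groups named in the key. In FADU, TNFRSF10D and TNFRSF10A are at or next to 0 between TNFRSF10B and CHMP7, which are not. TNFRSF10C is at 0 in both lines. CASP10 is low in FADU between CFLAR and CASP8, which are not.

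The initiator caspase genes and CFLAR sit side by side on the plus strand of chromosome 2, in the order CFLAR (201116104 to 201176687), CASP10 (201182881 to 201229406) and CASP8 (201233443 to 201287711), within 172 kb. All 3 were higher in SCC154, to different extents. CASP8 differed little between the lines, CFLAR by more and CASP10 most.

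CASP8 had 61.5, 69.5, 45.7 and 62.3 CPM in post-hypoxic SCC154 cells and 70.2, 58.7, 62.4, 49.2 and 52.8 CPM in non-hypoxic SCC154 cells. In FADU it had 49.9, 49.4, 46.1, 42.7 and 42.4 CPM in post-hypoxic cells and 49.2, 50.3, 44.7 and 29.5 CPM in non-hypoxic cells. The lines overlapped in both populations. CASP8 was 1.29-fold higher in post-hypoxic SCC154 than in post-hypoxic FADU cells (log2 fold change 0.37 ± 0.15 SE, edgeR adjusted p = 0.034) and 1.34-fold higher in non-hypoxic cells (0.42 ± 0.15 SE, adjusted p = 0.019).

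Both CASP8 calls between the lines hung on single libraries. In post-hypoxic cells the call was lost without SCC154 replicate 2, 3 or 5 (adjusted p = 0.070, 0.11 and 0.070) and without FADU replicate 3, 4 or 5 (0.053, 0.069 and 0.065). In non-hypoxic cells it was lost without SCC154 replicate 1 (adjusted p = 0.0578) or FADU replicate 4 (0.11). The post-hypoxic minus non-hypoxic differences of CASP8 were 0.02 ± 0.15 SE in SCC154 (adjusted p = 0.96) and 0.08 ± 0.16 SE in FADU (adjusted p = 1.0).

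CASP10, a caspase of the same receptor complex, had 17.9, 17.2, 20.0 and 13.5 CPM in post-hypoxic SCC154 cells and 13.3, 17.3, 13.2, 14.2 and 12.8 CPM in non-hypoxic SCC154 cells. In FADU the levels were 1.63, 1.83, 3.16, 2.46 and 3.06 CPM in post-hypoxic cells and 2.36, 3.03, 0.50 and 2.15 CPM in non-hypoxic cells. The lines did not overlap. CASP10 was 6.86-fold higher in post-hypoxic SCC154 than in post-hypoxic FADU cells (log2 fold change 2.78 ± 0.26 SE) and 6.76-fold higher in non-hypoxic cells (2.76 ± 0.29 SE). The post-hypoxic minus non-hypoxic differences were 0.28 ± 0.20 SE in SCC154 (adjusted p = 0.53) and 0.26 ± 0.39 SE in FADU (adjusted p = 1.0), and the groups overlapped in both lines.

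CFLAR, the caspase 8 competitor, had 94.1, 113, 89.8 and 82.6 CPM in post-hypoxic SCC154 cells and 82.99, 97.6, 112, 101 and 97.4 CPM in non-hypoxic SCC154 cells. In FADU it had 43.9, 43.5, 43.4, 37.8 and 38.9 CPM in post-hypoxic cells and 41.1, 32.9, 41.7 and 43.5 CPM in non-hypoxic cells. Every SCC154 library lay above every FADU library. CFLAR was 2.28-fold higher in post-hypoxic SCC154 than in post-hypoxic FADU cells (log2 fold change 1.19 ± 0.12 SE, edgeR adjusted p = 7.8e-09) and 2.47-fold higher in non-hypoxic cells (1.31 ± 0.13 SE, adjusted p = 3.3e-09). Post-hypoxic and non-hypoxic cells overlapped in both lines, with differences of -0.05 ± 0.12 SE in SCC154 (adjusted p = 0.86) and 0.06 ± 0.13 SE in FADU (adjusted p = 1.0).

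The antisense gene CFLAR-AS1 lies inside CFLAR on the other strand and followed the same line order, with means of 11.1 CPM in post-hypoxic and 9.66 CPM in non-hypoxic SCC154 cells and of 0.38 CPM in post-hypoxic and 0.36 CPM in non-hypoxic FADU cells. Reads of such a pair cannot be told apart without the strand setting, and their part in the CFLAR values was not tested.

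The ratio of CFLAR to CASP8 tags inside a library does not depend on the scaling between libraries. It was 1.53, 1.63, 1.96 and 1.33 in post-hypoxic SCC154 cells and 1.18, 1.66, 1.8, 2.06 and 1.84 in non-hypoxic SCC154 cells. In FADU it was 0.88, 0.88, 0.941, 0.885 and 0.918 in post-hypoxic cells and 0.837, 0.655, 0.933 and 1.47 in non-hypoxic cells. The post-hypoxic groups did not overlap, and the non-hypoxic ones did through FADU replicate 4, the library with the lowest CASP8 level. On the log2 scale the mean ratio was 0.68 ± 0.24 in post-hypoxic and 0.75 ± 0.31 in non-hypoxic SCC154 cells, and -0.15 ± 0.04 in post-hypoxic and -0.10 ± 0.49 in non-hypoxic FADU cells (SD, n = 4, 5, 5 and 4). No test was made of this ratio.

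The neighbours of these genes were again looked up after the values were known. TRAK2, next to CASP8, averaged 26.8 and 27.1 CPM in post-hypoxic and non-hypoxic SCC154 cells, against 22.4 and 23.9 CPM in post-hypoxic and non-hypoxic FADU cells. NDUFB3, next to CFLAR, averaged 45.9 and 42.5 CPM in SCC154 against 65.8 and 64.3 CPM in FADU, post-hypoxic first in each pair.

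XIAP, the gene of an inhibitor of effector caspases, was lower in SCC154. It had 231, 285, 252 and 302 CPM in post-hypoxic SCC154 cells and 250.4, 262, 307, 247 and 268 CPM in non-hypoxic SCC154 cells. In FADU it had 394, 416, 363, 369 and 417 CPM in post-hypoxic cells and 440.3, 368, 325 and 336 CPM in non-hypoxic cells. No SCC154 library reached the lowest FADU library. XIAP was 1.47-fold lower in post-hypoxic SCC154 than in post-hypoxic FADU cells (log2 fold change -0.55 ± 0.10 SE, edgeR adjusted p = 5.6e-05) and 1.38-fold lower in non-hypoxic cells (-0.46 ± 0.10 SE, adjusted p = 0.00039). Its post-hypoxic minus non-hypoxic difference was 0.00 ± 0.10 SE in SCC154 and 0.09 ± 0.10 SE in FADU (adjusted p = 1.0 in both), so that its means ordered as the FADU pair above the SCC154 pair, with neither pair separated.

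BID carries the caspase 8 signal to mitochondria. It had 17.9, 19.0, 16.7 and 10.4 CPM in post-hypoxic SCC154 cells and 27.0, 17.3, 16.6, 20.3 and 18.6 CPM in non-hypoxic SCC154 cells. In FADU it had 23.3, 26.6, 33.9, 33.7 and 28.5 CPM in post-hypoxic cells and 20.3, 18.6, 29.8 and 31.7 CPM in non-hypoxic cells. The lines were separate in post-hypoxic cells and overlapped in non-hypoxic cells.

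The BID level was 1.83-fold lower in post-hypoxic SCC154 than in post-hypoxic FADU cells (log2 fold change -0.88 ± 0.20 SE, edgeR adjusted p = 0.00059), and in non-hypoxic cells the difference was -0.32 ± 0.20 SE (adjusted p = 0.16). That one comparison passed and the other did not is not a difference between them. The test of that difference, the interaction, gave -0.56 ± 0.29 SE (unadjusted p = 0.065, adjusted p = 0.53). Its parts were -0.32 ± 0.21 SE between the SCC154 populations (adjusted p = 0.48) and 0.23 ± 0.19 SE between the FADU populations (adjusted p = 1.0). In FADU the post-hypoxic library was the higher in 4 of 4 pairs of equal replicate number, as for TNFSF10. The count was 3 of 4 for CASP8, CFLAR and XIAP and 2 of 4 for TNFRSF10B and CASP10. With the pair as a block the FADU difference of BID was 0.235 (edgeR adjusted p = 0.85). FADU replicates 1 and 2 lay below replicates 3 and 4 in both populations.

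**Figure D4:**
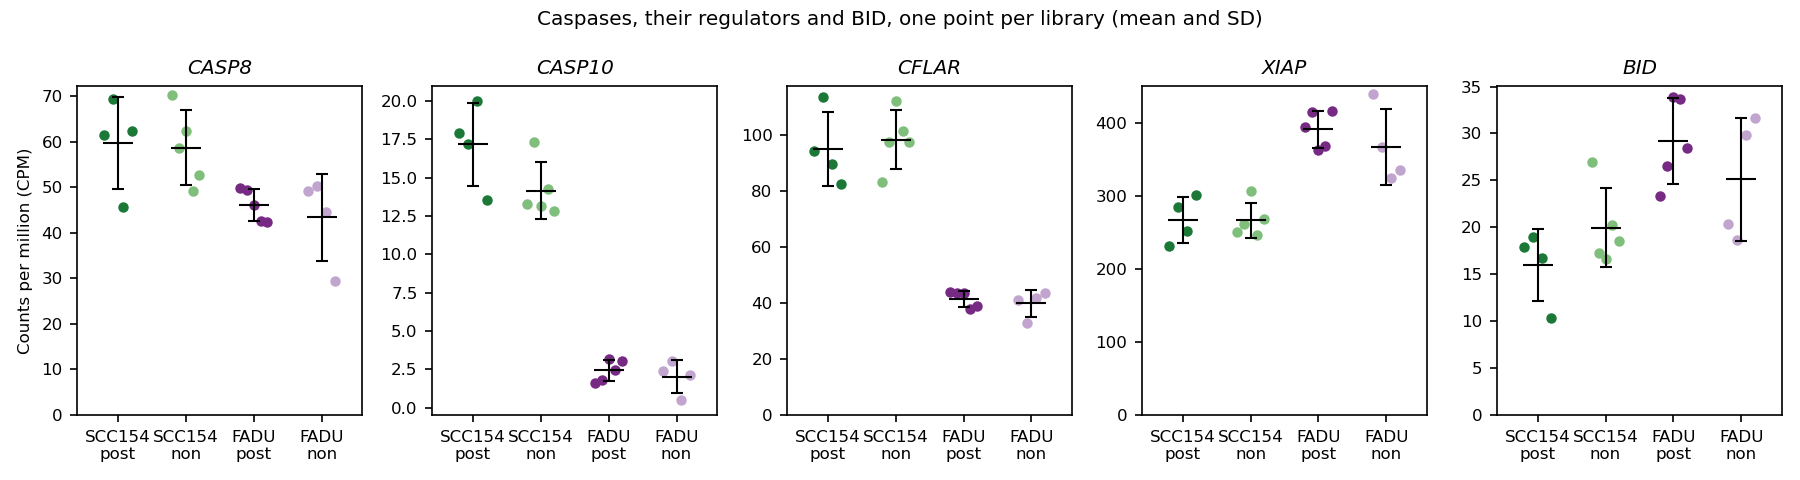
CPM of CASP8, CASP10, CFLAR, XIAP and BID in each library (1 point per library; bars are mean and SD) for SCC154 post-hypoxic, SCC154 non-hypoxic, FADU post-hypoxic and FADU non-hypoxic cells. CASP10 and CFLAR lie higher in every SCC154 library than in any FADU library and XIAP lower, while CASP8 overlaps between the lines.

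Other genes of death receptor signalling were taken as 6 lists with 91 symbols, of which 73 genes were tested. Between SCC154 and FADU they were called about as often as the table as a whole. The counts of calls between the lines, here and by list below, include genes measured mainly in 1 line, such as NGFR, TNFSF15 and BMF. Calls of such genes are fixed in part by the filter, and the shares over all tested genes include such genes too. In post-hypoxic cells 31 were higher and 19 lower in SCC154 (68.5%, beside 69.7% of all tested genes), with a median log2 fold change of 0.25 beside 0.01 over all genes. In non-hypoxic cells 31 were higher and 16 lower (64.4%, beside 68.9%), with a median of 0.29 beside -0.01. Between post-hypoxic and non-hypoxic cells 1 of the 73 was called in SCC154, none in FADU, and none differed between the lines; 7, 0 and 4 of the 73 had an unadjusted p under 0.05 in these comparisons. These comparisons share libraries with each other.

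Of the 16 tested adaptors and kinases of the receptor complexes, 6 were higher and 4 lower in post-hypoxic SCC154 than in post-hypoxic FADU cells (beside 34.8% and 34.9% of all tested genes), and 8 were higher and 4 lower in non-hypoxic cells (beside 34.5% in each direction). FADD, the adaptor that recruits caspase 8, averaged 83.5 CPM in post-hypoxic SCC154 against 293.5 CPM in post-hypoxic FADU cells, 3.51-fold lower (log2 fold change -1.81 ± 0.11 SE, edgeR adjusted p = 7.9e-13), and 69.96 against 303 CPM in non-hypoxic cells, 4.32-fold lower (adjusted p = 4.0e-14). CYLD, which removes ubiquitin chains from the receptor complex, was 2.25-fold higher in post-hypoxic and 2.70-fold higher in non-hypoxic SCC154 cells than in FADU cells of the same population. OTULIN, which removes linear ubiquitin chains, was 1.80-fold higher in post-hypoxic and 2.06-fold higher in non-hypoxic SCC154 cells. DAXX, the gene of a protein that binds the receptor FAS, was 2.14-fold lower in post-hypoxic and 1.67-fold lower in non-hypoxic SCC154 cells. RIPK1, the kinase of the complex, passed in neither population, at 25.8 CPM in post-hypoxic SCC154 against 25.2 CPM in post-hypoxic FADU cells (adjusted p = 0.92) and 31.4 against 24.96 CPM in non-hypoxic SCC154 and FADU cells (adjusted p = 0.16).

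Of 6 other tested death receptors and ligands, 2 were higher and 1 lower in SCC154 in each population, beside 69.7% of all tested genes called in post-hypoxic and 68.9% in non-hypoxic cells. TNFRSF21, the gene of death receptor DR6, was 2.38-fold higher in post-hypoxic and 2.13-fold higher in non-hypoxic SCC154 cells. NGFR, the gene of a neurotrophin receptor with a death domain, averaged 5.97 against 1.34 CPM in post-hypoxic SCC154 and FADU cells and 6.35 against 1.07 CPM in non-hypoxic SCC154 and FADU cells. TNFSF15, another ligand of the family, had 2 counts in post-hypoxic SCC154 against 50 in post-hypoxic FADU cells and 3 against 34 in non-hypoxic SCC154 and FADU cells. NGFR and TNFSF15 were measured mainly in 1 line, so their values are descriptions. Their calls, counted above, are fixed in part by the filter.

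The inhibitor of apoptosis list holds relatives of XIAP and their antagonists. BIRC3 averaged 373 CPM in post-hypoxic SCC154 against 7.26 CPM in post-hypoxic FADU cells, 50.7-fold higher (log2 fold change 5.66 ± 0.16 SE), and 67.3-fold higher in non-hypoxic cells. BIRC2, which with BIRC3 encodes the cellular ubiquitin ligases that act on the kinase RIPK1, was 8.81-fold higher in post-hypoxic and 8.34-fold higher in non-hypoxic SCC154 cells. BIRC5, the gene of survivin, went the same way as XIAP, 1.75-fold lower in post-hypoxic and 1.55-fold lower in non-hypoxic SCC154 cells. In each population 3 of 7 tested genes of this list were higher and 2 lower, beside 69.7% of all tested genes called in post-hypoxic and 68.9% in non-hypoxic cells.

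In the BCL2 family, whose members act on mitochondria after BID, 10 of 16 tested genes were higher and 3 lower in post-hypoxic SCC154 than in post-hypoxic FADU cells, and 10 were higher and 2 lower in non-hypoxic cells. Of all tested genes, 34.8% were higher and 34.9% lower in post-hypoxic SCC154 cells, and 34.5% were called in each direction in non-hypoxic cells. The called genes included both killers and protectors. PMAIP1 (NOXA), which promotes death, was 2.62-fold higher in post-hypoxic and 2.61-fold higher in non-hypoxic SCC154 cells, and BBC3 (PUMA), of the same kind, 3.63-fold and 4.14-fold higher in these populations. BCL2L1 (BCL-XL), a protector, was 4.12-fold higher in post-hypoxic and 5.88-fold higher in non-hypoxic SCC154 cells. BMF, a promoter of death, had 88 counts in post-hypoxic SCC154 and 2 in post-hypoxic FADU cells, and 96 in non-hypoxic SCC154 and 2 in non-hypoxic FADU cells. It was measured mainly in SCC154, so its values are a description.

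Among the effector caspases, apoptosome genes and caspase substrates, 3 of 14 tested genes were higher and 6 lower in post-hypoxic SCC154 than in post-hypoxic FADU cells, and 2 were higher and 3 lower in non-hypoxic cells. Over all tested genes 69.7% were called in post-hypoxic and 68.9% in non-hypoxic cells. CYCS, the gene of cytochrome c, was 3.82-fold lower in post-hypoxic and 3.70-fold lower in non-hypoxic SCC154 cells. AIFM1, the gene of a mitochondrial flavoprotein released in apoptosis, was 2.87-fold lower in post-hypoxic and 2.57-fold lower in non-hypoxic SCC154 cells. PARP1, a substrate of effector caspases, was 1.90-fold lower in post-hypoxic SCC154 cells with no overlap and 1.65-fold lower in non-hypoxic SCC154 cells with overlapping groups. The nuclease gene ENDOG was 1.91-fold higher in post-hypoxic and 1.54-fold higher in non-hypoxic SCC154 cells.

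Of 14 tested regulators of the ligand and receptor genes, 7 were higher and 3 lower in post-hypoxic SCC154 than in post-hypoxic FADU cells, and 6 were higher and 4 lower in non-hypoxic cells, beside 69.7% of all tested genes called in post-hypoxic and 68.9% in non-hypoxic cells. DDIT3 (CHOP), a stress factor known to induce TNFRSF10B, was 8.75-fold higher in post-hypoxic and 9.40-fold higher in non-hypoxic SCC154 cells. IRF1 was 4.26-fold higher and STAT2 3.75-fold higher in post-hypoxic SCC154 cells, and 4.33-fold and 3.44-fold higher in non-hypoxic ones. These are interferon signalling genes, and TNFSF10 is known as an interferon target. TNFSF10 itself went the other way, 3.37-fold lower in post-hypoxic and 3.93-fold lower in non-hypoxic SCC154 than in FADU cells. A link between these genes was not tested. IRF9 was the 1 gene of the 6 lists called between the SCC154 populations, 3.56-fold higher in post-hypoxic cells (log2 fold change 1.83 ± 0.22 SE, edgeR adjusted p = 9.7e-05), while TNFSF10 and CASP8, whose promoter windows are printed above, were not called there.

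**Figure D5:**
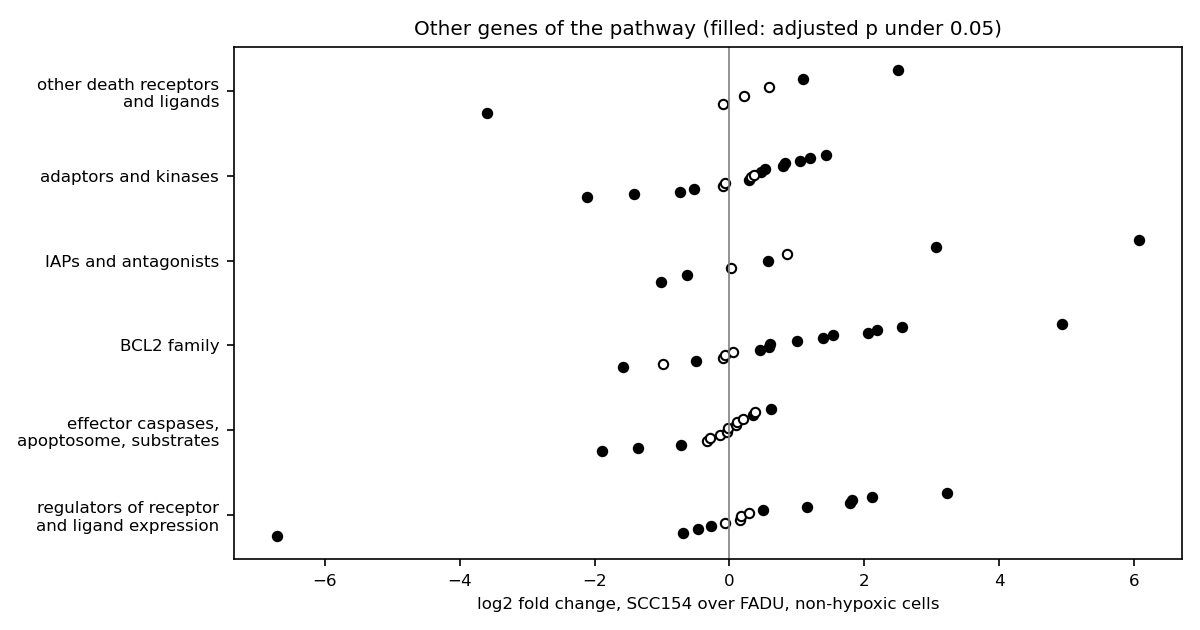
Log2 fold change, SCC154 over FADU, in non-hypoxic cells (horizontal axis) of each tested gene of the 6 lists of other pathway genes (rows); filled points had an adjusted p under 0.05. Of 73 genes 31 are called higher and 16 lower; the leftmost point belongs to a gene with 0 counts in non-hypoxic SCC154 cells, so its fitted value depends on the model and is no measured fold.

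The genes most like TNFRSF10D over the 18 libraries, among 9650 genes with a mean of at least 10 CPM, were VILL, SHCBP1L and PHLDB2, with Pearson coefficients of log2 CPM of 0.9978, 0.9975 and 0.9966, beside 0.9959 for TNFRSF10A. The libraries fall into 2 clusters by line, which sets these coefficients, and they are given as descriptions. VILL averaged 39.1 CPM in post-hypoxic and 35.4 CPM in non-hypoxic SCC154 cells and had 0 counts in every FADU library. SHCBP1L averaged 37.7 CPM in post-hypoxic and 42.8 CPM in non-hypoxic SCC154 cells, also with 0 counts in every FADU library. PHLDB2 was present in both lines, at 648 and 748 CPM in post-hypoxic and non-hypoxic SCC154 cells against 34.9 and 33.6 CPM in post-hypoxic and non-hypoxic FADU cells.

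For the other 8 genes likeness was taken over deviations from the 4 group means, which leaves the spread between replicates. The most similar gene was KDM1A for TNFSF10, LIG3 for TNFRSF10A, DVL2 for TNFRSF10B, RUFY3 for CASP8, LINC01232 for CASP10, ZFYVE26 for CFLAR, PAGR1 for XIAP and SMYD2 for BID. The coefficients lay between 0.8125 and 0.9252, and each is the highest of about 9650 over 18 libraries that share scaling factors and depth. For TNFRSF10A the FADU libraries held 1 count in all, so its coefficient rests almost wholly on the SCC154 libraries.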

How the data were processed

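The authors deposited whole-number counts per gene from QuantSeq 3′ mRNA-Seq libraries, which read the end of a transcript, so a count does not scale with transcript length. Per the submitters' processing notes, the hg38 build was used with featureCounts 1.5.1, HISAT2 2.2.1, Trimmomatic 0.39, FastQC 0.11.9, UMI-tools 1.1.5 and DESeq2. The sources used here give no annotation, strand setting, handling of reads that match several genes or use of UMIs. Library totals were 1654719 to 2503573 counts, and columns were matched to samples by the library name in each sample's description, and groups and replicate numbers came from the titles.

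Counts were tested with edgeR 4.0.16 (R 4.3.3): filterByExpr with the 4 groups (12291 of 41120 genes), TMM scaling, 1 quasi-likelihood model of 4 group means over 18 libraries (14 residual degrees of freedom, common biological coefficient of variation 0.148) and Benjamini-Hochberg adjustment over all tested genes. CPM used TMM-scaled totals. A group at 0 was given a floor of 3 counts. On simulated counts for the post-hypoxic against non-hypoxic SCC154 comparison (12291 genes, 200 changed), 89% of 2-fold and 39% of 1.5-fold changes were recovered, with 7 false calls. The simulated libraries were drawn independently, with nothing shared between equal replicate numbers, so these rates need not hold for the measured libraries. The changed genes were drawn from those with a mean of at least 10 CPM over all libraries. TNFSF10 and CASP10 lie below that mean, so these rates do not cover them.

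Of 32 pairs of replicates within groups, none matched within sampling noise (chi-square per degree of freedom 1.84 to 11.7), and all libraries were counted singly. Replicate numbers were taken as pairs where every correlation between the deviations of equal-numbered libraries was over 0.1. In FADU these were 0.178 to 0.447, so its numbers were taken as pairs, although replicate 3 correlated more with another number (0.242) than with its own (0.209). In SCC154 replicates 3, 4 and 5 passed (0.144 to 0.398) and replicate 2 did not (0.029), so its numbers were not.

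The members and lists were chosen with earlier results of these data known. Named genes were the 9 members, up to 3 called genes of lowest p per list and comparison, and the most similar genes; a gene named in 1 population is given in both, and neighbouring genes, RIPK1 and the genes in the other observations were chosen after their values were seen. Alternatives were other scaling, no filter, DESeq2 1.42.0, limma 3.58.1 voom, the compared groups only, replicate blocks and libraries left out. Gene positions are those of GENCODE release 29 and promoter sequences those of RefSeq.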

Additional observations from a re-analysis of the deposited data

Results flagged for a closer look

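Of 33 gene-by-group sets of 4 or 5 libraries checked, 2 held a library far from the others by Dixon's criterion, which chance meets in about 1 of 20 sets. TNFRSF10D had 64.33 CPM in non-hypoxic SCC154 replicate 1, against 151 to 175 CPM in the other libraries of its group. TNFRSF10A had 0.4966 CPM in non-hypoxic FADU replicate 3, which is 1 count, against 0 in the other libraries of its group; with the others at 0 any single count meets the criterion, so this one carries no information.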

How the results depend on the processing

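The count of members called between post-hypoxic and non-hypoxic cells, and in the interaction, was 0 under each alternative run. Between the lines, CASP8 was called in 19 of 26 settings in post-hypoxic and 23 of 26 in non-hypoxic cells, the other calls given with a p-value (TNFRSF10B, CFLAR and XIAP in both populations, BID in post-hypoxic cells) in 26 of 26, and BID in non-hypoxic cells in 0 of 26 (lowest adjusted p 0.057). The setting without both SCC154 post-hypoxic replicate 3 and SCC154 non-hypoxic replicate 1 was chosen after seeing the data; it lost both CASP8 calls (adjusted p = 0.0915 in post-hypoxic and 0.051 in non-hypoxic cells). With the compared groups only, TNFSF10 in SCC154 and CASP10 in FADU fell to the filter and could not be fitted.

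The replicate block, within each line or shared, changed no member call. The block within each line moved TNFRSF10D in SCC154 to -0.36 (adjusted p = 0.078). Non-hypoxic replicate 1, the low library, has no partner of its number and did not enter that difference. In SCC154 the deviations of libraries of equal number correlated at 0.029 to 0.398, over 0.1 and highest with their own number in 3 of 4 pairs, a hint from the data that numbers share something there too. Over all genes, the SCC154 count of 93 became 22 with the compared groups only, 210 with DESeq2, 291 with no filter, 1052 with the block within each line and 243 with the shared block, and 20 to 190 with a library left out. The FADU count of 0 became 10 with no filter, 2 with DESeq2 and 7 with the block within each line, and 0 to 1 with a library left out. The interaction count of 2 became 51 with no filter, 18 with DESeq2, 224 with the block within each line and 5 with the shared block.

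Changes of sign were all among uncalled differences, most of them near 0 on the log2 scale but not those of TNFSF10, and the cause was not tested. With a library left out, the SCC154 differences ranged from -0.12 to 1.05 for TNFSF10, -0.11 to 0.0878 for TNFRSF10A, -0.39 to 0.0343 for TNFRSF10D, -0.0506 to 0.15 for CASP8, -0.19 to 0.0148 for CFLAR and -0.0565 to 0.0692 for XIAP. The FADU differences ranged from -0.17 to 0.20 for TNFRSF10B, -0.0641 to 0.16 for CASP8, -0.0457 to 0.54 for CASP10 and -0.0227 to 0.10 for CFLAR. The interaction ranged from -0.57 to 0.60 for TNFSF10, -0.13 to 0.0965 for CASP8 and -0.26 to 0.33 for CASP10. Without both libraries named above, XIAP in SCC154 was at -0.0488 and the TNFSF10 interaction at -0.37. Voom gave -0.0038 for XIAP in SCC154, 0.0009 for TNFRSF10B in FADU, and interactions of -0.18 for TNFSF10 and -0.11 for CASP10. With the block within each line, TNFRSF10A in SCC154 was at -0.0311 and XIAP at -0.0218; with the shared block TNFRSF10A was at -0.0363 and the CASP10 interaction at -0.0496.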

Other observations

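RIPK3, the kinase through which death receptors signal to necroptosis when caspase 8 is blocked, had 0 counts in all 18 libraries, which allows up to 0.0776 CPM. TNFRSF1A, the main receptor of tumour necrosis factor, was present in every group, at 196 ± 51.5 CPM in post-hypoxic and 157 ± 15.6 CPM in non-hypoxic SCC154 cells and at 174 ± 31.7 CPM in post-hypoxic and 168 ± 42.1 CPM in non-hypoxic FADU cells (SD, n = 4, 5, 5 and 4). FAS, another death receptor gene, averaged 11.9 and 13.9 CPM in post-hypoxic and non-hypoxic SCC154 cells and 9.42 and 9.23 CPM in post-hypoxic and non-hypoxic FADU cells.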
